A study of Mus with 2 samples.

Results

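The 10 genes described here modulate or report Wnt signalling in the newborn kidney: the R-spondins Rspo1 and Rspo3, their receptors Lgr4 and Lgr5, the secreted inhibitors Sfrp1 and Sfrp2, the Wnt receptor Fzd10, and the target or feedback genes Axin2, Lef1 and Apcdd1. They were chosen by symbol, 10 of the 28693 features counted, and each symbol matched a single feature. Rspo1 was highest in nephron progenitor-like cells, at 236 and 275 CPM in replicates 1 and 2, the gene's unique molecular identifiers (UMIs) per 1000000 UMIs of the type. Rspo3 was shared between nephron progenitor-like and cortical stroma-like cells. Lgr4 was highest in the proximal nephron, Lgr5 in the distal nephron precursors, Sfrp1 in the stroma and Sfrp2 in the renal vesicle-like cells. Axin2, Lef1, Fzd10 and Apcdd1 were all higher in medullary than in cortical stroma-like cells, by 2.47 to 8.33 on the log2 scale.

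In canonical Wnt signalling a Wnt ligand binds a Frizzled receptor and an LRP co-receptor, beta-catenin accumulates, and with TCF/LEF factors it switches on targets that include Axin2 and Lef1. R-spondins bound to LGR receptors keep the ubiquitin ligases ZNRF3 and RNF43 from clearing Frizzled receptors, whereas secreted Frizzled-related proteins (SFRPs) bind Wnts outside the cell. In the embryonic kidney, Wnt9b from the branching ureteric epithelium and Wnt4 from the condensing mesenchyme drive nephron progenitors towards the renal vesicle, and stromal Wnt activity is needed for the medulla to form.

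The cells came from kidneys of newborn mice at postnatal day 0 (P0) in 2 libraries, replicates 1 and 2, both of the genotype Rbpj c/- ; Foxd1cre/+. Foxd1Cre was used to delete a floxed allele of Rbpj, the DNA-binding partner of Notch receptors, in the renal interstitium, so the lesion was aimed at stromal cells, and every cell of both libraries came from a mutant kidney. The series design also names Rbpj c/+ ; Foxd1cre/+ controls, not analysed here. Every comparison below is therefore between cell types within the mutants, and none measures an effect of the deletion. The labels do not say that the libraries came from separate animals. The p-values measure only how far differences between types varied between these 2 libraries, pooled over the gated types. That spread may be technical.

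The libraries held 163405630 and 135436576 UMIs. Barcodes with at least 2000 UMIs and at most 10% mitochondrial UMIs were kept, and after doublet removal 5910 and 4937 cells remained, with medians of 11716.5 and 12196 UMIs. The libraries shared 5 cell barcodes. Cells were assigned to types by the summed level of fixed marker genes, none of them among the 10 genes, and names end in "-like" because they rest on markers alone. No gate took 12.8% and 11.3% of the cells. Most markers were highest in their own gate, which follows in part from gating on these same markers. The exceptions were Tcf21 for stroma, Meox1 for nephron progenitors, Calb1 for distal tubule, Tfap2b for ureteric epithelium, and Clca3a1 and Crym for cortical stroma. Further exceptions were Penk for interstitial stroma and 5 of the 10 early nephron markers (Pou3f3, Cdh6, Osr2, Irx1 and Sim2). Of these, Irx1 and Sim2 also gate the distal precursors, and Osr2 and Cdh6 the proximal precursors. A clustering made without the 10 genes placed 100% of the stroma-like and 99.4% of the nephron progenitor-like cells in clusters of the same name. That share was 84.4% for early nephron-like, 84.6% for ureteric epithelium-like, 78.4% for distal tubule-like and 73.1% for loop of Henle-like cells. The clustering did not leave out the marker genes, and the clusters were named by the same marker scores. Part of this agreement is therefore built in, and the types gated within stroma, early nephron and ureteric epithelium were not compared with clusters. Levels below are CPM, taken within each library, replicate 1 first. Shares are cells with at least 1 UMI after each cell was thinned to 4600 UMIs, since depth differed between types. The median depth was lowest in erythroid-like cells (4667 and 4579 UMIs). It was highest in ureteric tip-like cells in replicate 1 (37892) and in collecting duct-like cells in replicate 2 (29690). Erythroid-like cells stand for cells that should lack these genes, and barcodes of 1 to 100 UMIs, called near-empty, give the level of free RNA.

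**Figure D1:**
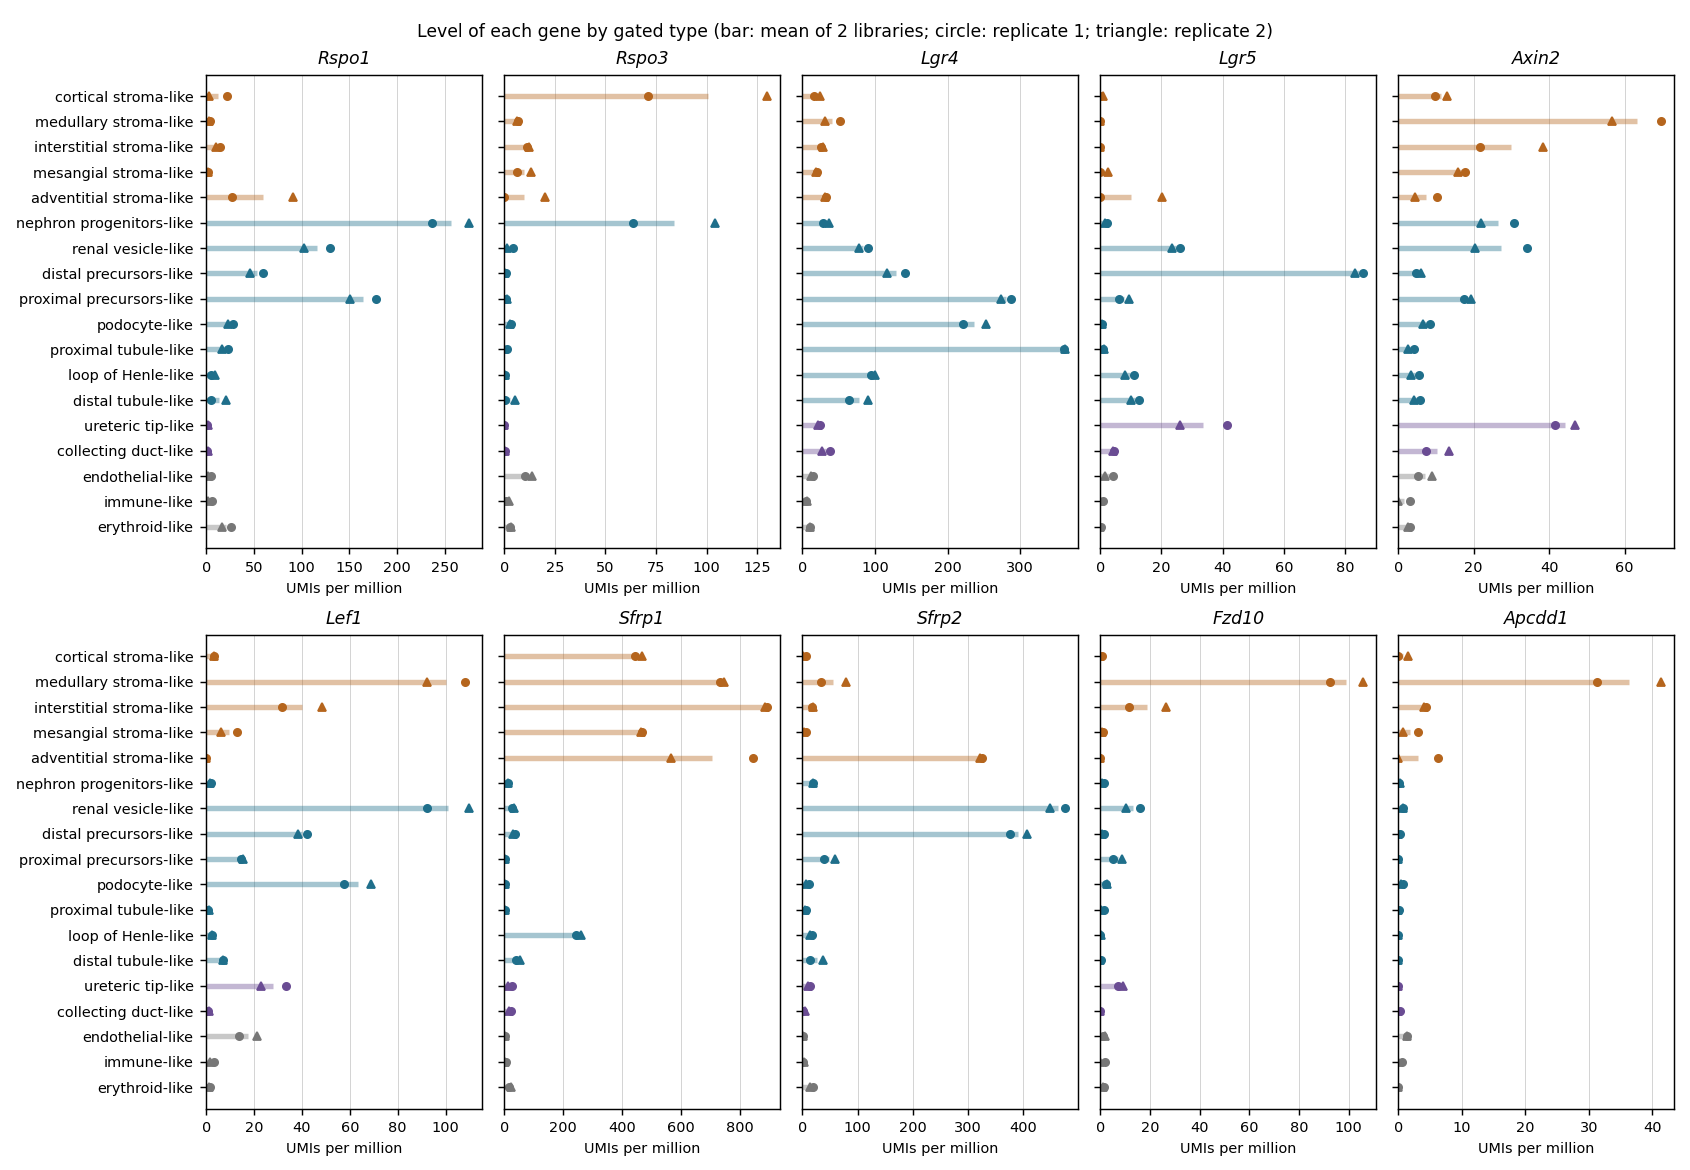
Levels of the 10 genes in CPM (horizontal axis of each panel) in the gated types (vertical axis), with a bar for the mean of 2 libraries, circles for replicate 1 and triangles for replicate 2. Fzd10 and Apcdd1 stand out in medullary stroma-like cells (92.4 and 106, and 31.4 and 41.4), Lgr5 in distal precursor-like cells (86.0 and 83.2), and the circle and triangle lie far apart for Rspo3 in cortical stroma-like cells (71.1 and 130).

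The R-spondin Rspo1 (ENSMUSG00000028871, GRCm38 chromosome 4, 124986401 to 125009102) was highest in the progenitors and the early nephron. Nephron progenitor-like cells, the Six2-expressing cells that give rise to the nephron, held 236 and 275 CPM, and 60.3% and 69.4% of them had a UMI. The level was 178 and 150 in proximal precursor-like cells, 129 and 102 in renal vesicle-like cells and 59.3 and 46.1 in distal precursor-like cells, and these ranges did not overlap. The early nephron-like cells as a whole (124 and 108) were 2.46-fold lower than the progenitors (log2 difference -1.30 ± 0.15 SE, adjusted p = 3.9e-07). Distal precursor-like cells were 3.11-fold lower than proximal precursor-like cells (-1.64 ± 0.18, adjusted p = 3.7e-08).

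Rspo1 was lower in the later nephron and in other lineages. Podocyte-like cells held 27.7 and 22.6 CPM, proximal tubule-like cells 23.2 and 16.5, distal tubule-like cells 5.40 and 20.4 and loop of Henle-like cells 5.56 and 8.87. Near-empty barcodes held 54.8 and 58.9 CPM, above all of these levels. Stroma-like cells held 11.7 and 9.11 CPM, 25.3-fold less than the progenitors (-4.66 ± 0.21, adjusted p = 2.6e-14). Their shares of cells with a UMI, 1.75% and 2.86%, lay near the 3.92% and 2.72% of erythroid-like cells, and the part of free RNA in the stromal counts was not tested. The call of stroma-like above ureteric epithelium-like cells (1.04 and 1.70 CPM; 3.05 ± 0.46, adjusted p = 6.9e-06) compares levels that were both below that of the near-empty barcodes. It was lost at a mitochondrial limit of 5%, where the difference was 0.78 (adjusted p = 0.4; 5.6e-23 to 0.4 over 13 alternatives). Cortical stroma-like cells had 41 UMIs in replicate 1, of which 19 came from 1 cell, and 6 UMIs in replicate 2, and their difference from medullary stroma-like cells (2 and 2 UMIs) did not pass the test (1.86 ± 0.95, adjusted p = 0.20). It passed without a filter on low counts (0.023; 0.023 to 0.49 over 12 alternatives) and was -0.04 without replicate 1. Adventitial stroma-like cells held 26.9 and 91.3 CPM, and in replicate 1 a single cell gave 12 of the 13 UMIs. After thinning, 2.04% and 16.3% of the adventitial cells had a UMI of Rspo1, and the level and share in replicate 2 lay above those of near-empty barcodes and erythroid-like cells.

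Rspo3 (ENSMUSG00000019880, chromosome 10, 29453106 to 29535867), the other R-spondin of the set, was counted mainly in a stromal and a nephron progenitor type. Cortical stroma-like cells, gated on Foxd1, Ntn1 and related markers, held 71.1 and 130 CPM, and nephron progenitor-like cells 63.5 and 104. The ranges of these types overlapped, and replicate 2 was the higher library in both. Apart from the stroma as a whole, which includes the cortical cells, no other type described here exceeded 20.03 CPM in either library, the level of adventitial stroma-like cells in replicate 2, where 9 UMIs were counted against 0 in replicate 1. A UMI was found in 21.8% and 39.3% of the cortical stroma-like and 23.6% and 28.4% of the progenitor-like cells, against 1.18% and 0.543% of erythroid-like cells. Near-empty barcodes held 9.94 and 12.4 CPM.

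The step from progenitor to early nephron also differed in Rspo3. Early nephron-like cells held 2.0 and 1.26 CPM, 53.1-fold below the progenitors (-5.73 ± 0.27, adjusted p = 6.8e-14). The log2 difference was -6.51 without replicate 1 and -5.06 without replicate 2. Medullary stroma-like cells, at 6.97 and 6.14 CPM (4 UMIs in each library), were 15.2-fold below cortical stroma-like cells (3.92 ± 0.50, adjusted p = 7.7e-07), or by 3.33 on the log2 scale without replicate 2. Stroma-like cells as a whole (24.3 and 51.4) were 2.29-fold below the progenitors (-1.20 ± 0.18, adjusted p = 9.6e-06), a call that DESeq2's Wald test did not make at a similar difference (-1.12, adjusted p = 0.067; 6.3e-25 to 0.067 over 13 alternatives). The ureteric epithelium-like cells had 3 UMIs of Rspo3 in all against 635 in stroma-like cells. By direct counts the stroma-like level was 171-fold higher (95% interval 58.3 to 832, counting error only), and the fitted difference was 7.34 ± 0.53 (adjusted p = 7.8e-11), with 8.19 without replicate 1 and 6.54 without replicate 2. Ureteric tip-like cells had 0 UMIs in both libraries, which allows up to 0.938 and 1.60 CPM. Distal and proximal precursor-like cells had 5 and 8 UMIs in all and did not differ by the test (-0.74 ± 1.02, adjusted p = 0.67).

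Both R-spondins were counted in the same thinned cell in 134 of 842 progenitor-like cells of replicate 1 (15.9%, exact binomial 95% interval 13.5 to 18.6) and 195 of 922 of replicate 2 (21.1%, 18.6 to 23.9). In cortical stroma-like cells this held for 0 of 165 and 3 of 196 cells. Progenitor-like cells carried 56.4% and 65.6% of all Rspo1 UMIs in the kept cells and 68.9% and 73.0% of all Rspo3 UMIs, shares that also depend on how many cells of each type were captured. Whether the R-spondins shared cells more often than their separate shares give was not tested.

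**Figure D2:**
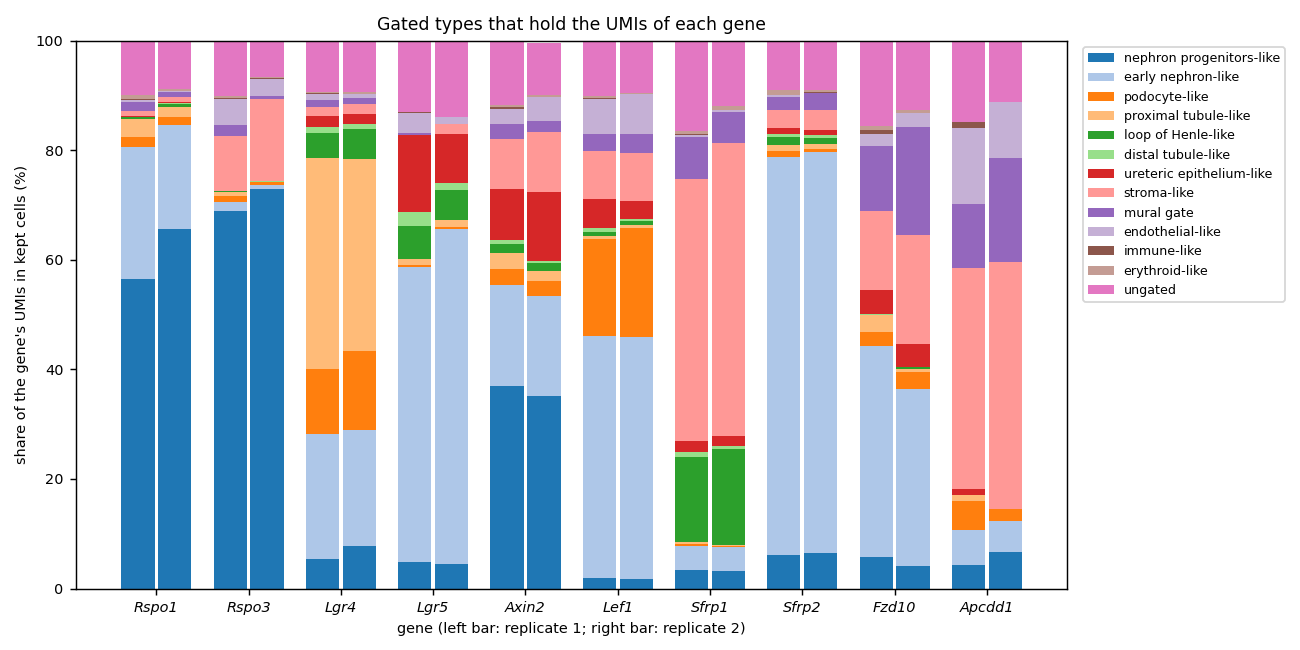
Share of each gene's UMIs in the kept cells (vertical axis, percent) held by each gated type, in replicate 1 (left bar of each pair) and replicate 2 (right bar). Nephron progenitor-like cells held most UMIs of Rspo1 and Rspo3, and early nephron-like cells most of Sfrp2 (72.7% and 73.2%) and Lgr5 (53.9% and 61.1%). The mural gate, which took cells of several clusters, is drawn but described only for Fzd10 and for genes counted together.

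The R-spondin receptor Lgr4 (ENSMUSG00000050199, chromosome 2, 109917647 to 110014257) was counted in every gated type, with its highest levels along the proximal side of the nephron. Proximal tubule-like cells held 361 and 362 CPM, proximal precursor-like cells 288 and 274, podocyte-like cells 221 and 253, distal precursor-like cells 141 and 116 and loop of Henle-like cells 94.5 and 99.7. These ranges did not overlap. A UMI was found in 79.7% and 80.2% of proximal tubule-like and 59.3% and 63.9% of podocyte-like cells, against 3.53% and 1.63% of erythroid-like cells. Near-empty barcodes held 88.3 and 70.0 CPM.

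Lgr4 was higher in the early nephron than in the progenitors. Early nephron-like cells (149 and 134) were 3.91-fold above nephron progenitor-like cells (29.0 and 36.8), with a log2 difference of 1.97 ± 0.11 (adjusted p = 2.2e-12). In the clustering, 108 of the 1068 early nephron-like cells lay in a cluster named proximal tubule, the type with the highest Lgr4, and the part of these cells in the difference was not tested. Distal precursor-like cells were 2.18-fold below proximal precursor-like cells (-1.12 ± 0.10, adjusted p = 6.6e-10).

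Lgr4 differences within the stroma and the ureteric epithelium were small and passed or missed the test with the setting, and all levels compared there lay below those of the near-empty barcodes. Stroma-like cells (24.0 and 22.4) were below the progenitors by 0.54 ± 0.13 on the log2 scale (adjusted p = 0.0016), and by 0.31 without replicate 2. At a mitochondrial limit of 5% it was -0.22 (adjusted p = 0.43; 3.7e-05 to 0.43 over 13 alternatives). Medullary stroma-like cells (52.3 and 30.7) were above cortical stroma-like cells (16.8 and 24.1), with a difference of -0.99 ± 0.27 for cortical minus medullary (adjusted p = 0.0098). That difference was -0.33 without replicate 1 and -1.64 without replicate 2, and the call was lost, at a difference of -1.04 in both, after thinning (adjusted p = 0.097) and with a stricter gate (0.13; 0.0022 to 0.13 over 12 alternatives). Ureteric tip-like cells (25.02 and 21.3) were below collecting duct-like cells (38.0 and 27.7) by 0.52 ± 0.18 on the log2 scale (adjusted p = 0.022). The tip difference was -0.34 without replicate 1 and was not called after thinning (-0.06, adjusted p = 0.99) or without doublet removal (-0.38, 0.097; 0.0033 to 0.99 over 12 alternatives). Stroma-like and ureteric epithelium-like cells (30.6 and 29.4) did not differ by the test (-0.29 ± 0.15, adjusted p = 0.10).

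Lgr5 (ENSMUSG00000020140, chromosome 10, 115450314 to 115587780), a receptor known as a stem cell marker of the gut, had a narrower pattern. Distal precursor-like cells held 86.0 and 83.2 CPM, ureteric tip-like cells 41.3 and 26.1 and renal vesicle-like cells 25.9 and 23.6, in that order without overlap. Loop of Henle-like cells held 11.1 and 8.10 CPM and distal tubule-like cells 12.6 and 10.2. A UMI was found in 25.2% and 27.2% of distal precursor-like cells, and in 0 of the thinned erythroid-like cells of both libraries. Near-empty barcodes held 3.69 and 4.70 CPM.

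Lgr5 was 10.9-fold higher in distal than in proximal precursor-like cells (6.26 and 9.49 CPM), the opposite order to Lgr4 (3.45 ± 0.24, adjusted p = 8.1e-12). Early nephron-like cells as a whole (32.4 and 31.4) were 14.4-fold above the progenitors (2.35 and 1.69), with a log2 difference of 3.85 ± 0.31 (adjusted p = 1e-09). Ureteric tip-like cells were 7.82-fold above collecting duct-like cells, which held 4.64 and 4.07 CPM (2.97 ± 0.36, adjusted p = 1.1e-07). After thinning, the tip difference was 2.16 and no longer passed (adjusted p = 0.11; 9.5e-27 to 0.11 over 12 alternatives). Stroma-like cells had 1 UMI of Lgr5 in replicate 1 and 14 in replicate 2, of which 9 came from adventitial stroma-like cells. Their level was lower than in ureteric epithelium-like cells (20.2 and 11.9) by 4.03 ± 0.46 on the log2 scale (adjusted p = 1e-07), by 2.70 without replicate 1 and by 7.17 without replicate 2, and it did not differ from the progenitors by the test (-1.18 ± 0.55, adjusted p = 0.076). The latter difference passed with Leiden clusters (0.037), at a minimum of 1000 UMIs (0.025) and without a filter on low counts (0.013; 0.013 to 0.80 over 13 alternatives). Medullary and interstitial stroma-like cells had 0 UMIs in both libraries, which allows up to 5.23 and 4.60 CPM in the medullary cells.

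The secreted inhibitor Sfrp1 (ENSMUSG00000031548, chromosome 8, 23411383 to 23449632) was high in every stromal type. Stroma-like cells held 527 and 496 CPM, and 83.5% and 83.4% of them had a UMI, against 3.92% and 2.72% of erythroid-like cells. Within the stroma, interstitial stroma-like cells held 892 and 884, medullary 734 and 746, adventitial 845 and 568, mesangial 467 and 464, and cortical 444 and 468. The stroma-like level was 37.2-fold that of nephron progenitor-like cells (14.2 and 12.5; 5.22 ± 0.13, adjusted p = 3.2e-18) and 22.7-fold that of ureteric epithelium-like cells (24.0 and 23.8; 4.51 ± 0.13, adjusted p = 2.2e-17). Near-empty barcodes held 42.9 and 52.3 CPM, above the level of the progenitors and the ureteric epithelium. Cortical stroma-like cells were below medullary stroma-like cells by 0.70 ± 0.13 on the log2 scale (adjusted p = 0.00015).

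Sfrp1 had a further site in the nephron, the loop of Henle. Loop of Henle-like cells held 244 and 260 CPM, and 50.4% and 51.0% of them had a UMI. A single loop of Henle-like cell had 122 UMIs in replicate 1 and another 140 in replicate 2. Distal precursor-like cells (35.7 and 30.6) were 10.8-fold above proximal precursor-like cells (3.61 and 2.37), with a log2 difference of 3.43 ± 0.30 (adjusted p = 2.3e-10). These levels, and those of the early nephron-like, ureteric tip-like and collecting duct-like cells below, lay under the near-empty level. Early nephron-like cells (22.3 and 22.0) were 1.5-fold above the progenitors (0.58 ± 0.13, adjusted p = 0.00097). That call was lost with cells over 50000 UMIs left out (0.32, adjusted p = 0.18), after thinning (0.38, 0.25), at a mitochondrial limit of 5% (0.21, 0.55) and with a stricter gate (0.35, 0.082; 3.2e-07 to 0.55 over 13 alternatives). Ureteric tip-like (25.02 and 14.4) and collecting duct-like cells (23.5 and 17.5) overlapped and did not differ by the test (-0.02 ± 0.25, adjusted p = 0.97).

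Sfrp2 (ENSMUSG00000027996, chromosome 3, 83765750 to 83774314) was counted mainly in the early nephron, with a stromal site in the adventitial gate. Renal vesicle-like cells, the first epithelial stage of the nephron, held 475 and 448 CPM, distal precursor-like cells 375 and 406 and adventitial stroma-like cells 325 and 321, with no overlap between them. The share of cells with a UMI was 70.4% and 67.2% in renal vesicle-like, 60.2% and 55.3% in distal precursor-like and 38.8% and 51.2% in adventitial stroma-like cells, against 1.96% and 2.17% of erythroid-like cells. Near-empty barcodes held 35.5 and 41.2 CPM.

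Early nephron-like cells (288 and 300) were 13.4-fold above the progenitors for Sfrp2 (19.7 and 19.9; 3.75 ± 0.18, adjusted p = 1.5e-13). Distal precursor-like cells were 8.06-fold above proximal precursor-like cells (39.2 and 59.0; 3.01 ± 0.16, adjusted p = 3.7e-15). In the stroma, medullary stroma-like cells (33.1 and 78.3) were above cortical stroma-like cells (6.51 and 1.48). The cortical minus medullary difference was -3.86 ± 0.47 (adjusted p = 2.4e-07), with -5.66 without replicate 1 and -2.35 without replicate 2. Stroma-like cells as a whole (27.4 and 27.5) exceeded ureteric epithelium-like cells (10.8 and 8.68) by 1.56 ± 0.27 (adjusted p = 2.8e-05), a call lost at a mitochondrial limit of 5% (0.29, adjusted p = 0.55; 6.5e-20 to 0.55 over 13 alternatives), with both levels below that of near-empty barcodes. Ureteric tip-like cells (13.4 and 9.57) were above collecting duct-like cells (1.74 and 4.48) by 2.03 ± 0.48 (adjusted p = 0.0011), with 1.13 without replicate 1 and 2.89 without replicate 2. The tip call was lost after thinning, where the difference was 4.79 (adjusted p = 0.11), and without the cells over 50000 UMIs, where it was 1.85 (0.088; 9.9e-08 to 0.11 over 12 alternatives), and both ureteric levels lay below that of near-empty barcodes. Stroma-like and progenitor-like cells, also below that level, did not differ by the test (0.43 ± 0.20, adjusted p = 0.078). Their difference passed with DESeq2's size factors (0.046), without the cells over 50000 UMIs (0.027), without a filter on low counts (0.0042) and with a stricter gate, where it was 0.81 (0.0013; 0.0013 to 0.42 over 13 alternatives).

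**Figure D3:**
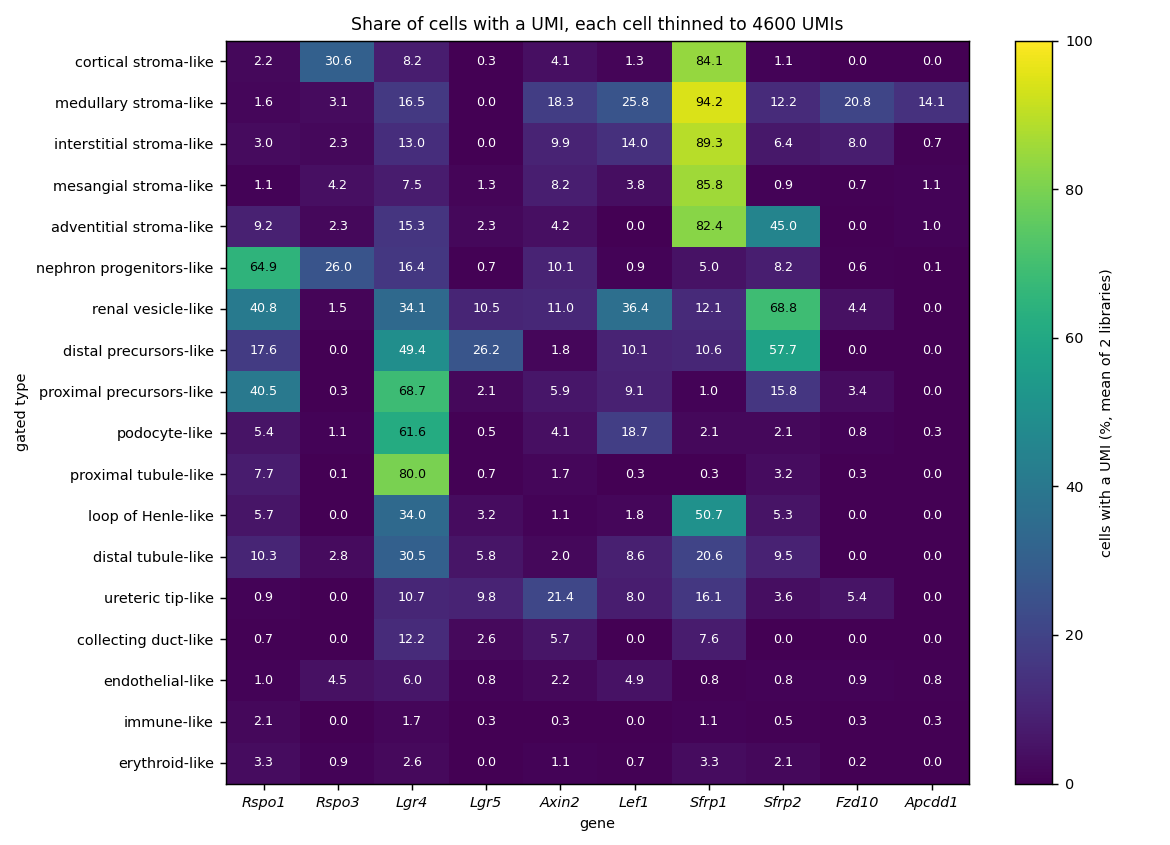
Share of cells with at least 1 UMI of each gene (colour and printed number, percent, mean of 2 libraries) after thinning each cell to 4600 UMIs, with genes on the horizontal and gated types on the vertical axis. The stromal rows are high for Sfrp1, the renal vesicle-like row for Sfrp2 and Lef1, and the medullary stroma-like row alone is above 10% for both Fzd10 (20.8%) and Apcdd1 (14.1%).

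The Wnt receptor Fzd10 (ENSMUSG00000081683, chromosome 5, 128601106 to 128604093) was highest in the medullary stroma-like cells. These cells, gated on Cck, Corin and related markers, held 92.4 CPM (exact Poisson 95% interval 69.2 to 121) and 106 (82.4 to 134), from 53 and 69 UMIs. Cortical stroma-like cells had 1 and 0 UMIs. The direct ratio was 386 (68.0 to 15370), and the fitted cortical minus medullary difference was -8.33 ± 0.59 (adjusted p = 1.6e-11), with -10.83 without replicate 1, where the cortical count is 0, and -7.30 without replicate 2. A UMI was found in 22.8% and 18.8% of medullary stroma-like and 6.76% and 9.26% of interstitial stroma-like cells, which held 11.5 and 26.3 CPM, and in 0.392% and 0% of erythroid-like cells. Adventitial stroma-like cells had 0 UMIs in both libraries, which allows up to 6.21 and 6.68 CPM. Near-empty barcodes held 2.56 and 3.04 CPM, close to the ureteric epithelium-like and above the progenitor-like and distal precursor-like levels given next.

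The mural gate held 19.0 and 50.9 CPM of Fzd10, and 229 of its 393 cells lay in stroma clusters. Outside the stroma, Fzd10 was counted at lower levels in renal vesicle-like cells (15.9 and 10.3), ureteric tip-like cells (7.19 and 9.04) and proximal precursor-like cells (5.29 and 8.60). Ureteric tip-like cells had 40 UMIs in all and collecting duct-like cells 0. The tip level was at least 15.5-fold higher when the 0 is replaced by a floor of 3 counts over both libraries, and the difference passed the test (adjusted p = 3.7e-06). Early nephron-like cells (11.3 and 9.52) were 8.16-fold above the progenitors (1.37 and 0.892; 3.03 ± 0.39, adjusted p = 1.5e-06). Stroma-like cells (9.21 and 10.5) were 8.28-fold above the progenitors (3.05 ± 0.42, adjusted p = 1.9e-06). They were 3.45-fold above ureteric epithelium-like cells (2.98 and 3.06; 1.79 ± 0.44, adjusted p = 0.0014), a call lost after thinning (1.37, adjusted p = 0.06) and at a mitochondrial limit of 5% (0.30, 0.8; 3.8e-08 to 0.8 over 13 alternatives). Distal precursor-like cells (1.58 and 0.537) were below proximal precursor-like cells. That difference was -2.56 ± 0.52 (adjusted p = 0.00041), with -3.85 without replicate 1 and -1.71 without replicate 2.

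Axin2 (ENSMUSG00000000142, chromosome 11, 108917828 to 108950783), a negative-feedback target widely used as a readout of canonical Wnt activity, was counted at modest levels in many types. Medullary stroma-like cells held 69.7 (49.8 to 94.9) and 56.8 CPM (40.0 to 78.3), from 40 and 37 UMIs, and ureteric tip-like cells 41.6 and 46.8. The next types, interstitial stroma-like (21.6 and 38.4), renal vesicle-like (34.2 and 20.4) and nephron progenitor-like cells (30.6 and 22.1), overlapped one another. After thinning, 19.3% and 17.4% of medullary stroma-like cells had a UMI, as did 10 and 14 of the 56 ureteric tip-like cells in each library, against 1.57% and 0.543% of erythroid-like cells. Near-empty barcodes held 13.1 and 9.96 CPM, close to the cortical stroma-like and collecting duct-like and above the distal precursor-like levels given next.

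Axin2 was 5.55-fold lower in cortical (9.76 and 12.8) than in medullary stroma-like cells (-2.47 ± 0.34, adjusted p = 1.7e-06). It was 4.38-fold higher in ureteric tip-like than in collecting duct-like cells (7.26 and 13.4; 2.13 ± 0.26, adjusted p = 6.7e-08). Early nephron-like cells (18.5 and 15.4) were below the progenitors by 0.78 ± 0.15 (adjusted p = 0.00028). Distal precursor-like cells (4.75 and 5.90) were 3.42-fold below proximal precursor-like cells (17.3 and 19.3; -1.77 ± 0.30, adjusted p = 3e-05), a call lost after thinning at a similar difference (-1.64, adjusted p = 0.23; 1.6e-10 to 0.23 over 13 alternatives). Stroma-like cells (20.3 and 16.7) were below the progenitors by 0.54 ± 0.17 (adjusted p = 0.0094). This call was lost at similar differences with DESeq2's Wald test (-0.47, adjusted p = 0.13) and in the fit without the library block (-0.55, 0.063; 0.0001 to 0.13 over 13 alternatives). They did not differ from ureteric epithelium-like cells (22.6 and 27.2) by the test (-0.33 ± 0.19, adjusted p = 0.15). Axin2 was called lower in the stroma with Leiden clusters (-0.43, adjusted p = 0.036), without the cells over 50000 UMIs (-0.57, 0.038) and at a mitochondrial limit of 5% (-0.89, 0.016; 0.016 to 0.68 over 13 alternatives).

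Lef1 (ENSMUSG00000027985, chromosome 3, 131110297 to 131224357), which encodes a DNA-binding partner of beta-catenin and is itself a target, peaked in a stromal and a nephron type. Renal vesicle-like cells held 92.1 and 110 CPM and medullary stroma-like cells 108 and 92.1. Their ranges overlapped, and the library decided which of them was the highest. Podocyte-like cells held 57.6 and 68.9, distal precursor-like cells 42.1 and 38.4, interstitial stroma-like cells 31.6 and 48.6 and ureteric tip-like cells 33.1 and 22.9. A UMI was found in 37.8% and 35.1% of renal vesicle-like and 29.8% and 21.7% of medullary stroma-like cells, against 0.784% and 0.543% of erythroid-like cells. Near-empty barcodes held 13.3 CPM in both libraries, close to the ureteric epithelium-like and proximal precursor-like levels given next. The progenitor-like, cortical stroma-like and collecting duct-like levels lay below that.

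Lef1 was low in nephron progenitor-like, cortical stroma-like and collecting duct-like cells. Progenitor-like cells held 1.82 and 1.59 CPM, and early nephron-like cells (50.6 and 55.3) were 27.7-fold above them (4.79 ± 0.20, adjusted p = 9.1e-15). Cortical stroma-like cells held 3.25 and 3.44, 29.4-fold below medullary stroma-like cells (-4.88 ± 0.33, adjusted p = 3.6e-12). Collecting duct-like cells had 2 and 3 UMIs, and ureteric tip-like cells were 31.9-fold above them (5.0 ± 0.41, adjusted p = 5.7e-11). The log2 difference was 4.20 without replicate 1 and 5.70 without replicate 2. Stroma-like cells (22.0 and 19.7) were 11.8-fold above the progenitors (3.56 ± 0.23, adjusted p = 1.4e-11). They exceeded ureteric epithelium-like cells (14.5 and 10.5) by 0.79 ± 0.20 (adjusted p = 0.0019), but at a mitochondrial limit of 5% the difference was -0.79 (adjusted p = 0.082; 7.6e-06 to 0.082 over 13 alternatives). Distal precursor-like cells were above proximal precursor-like cells (14.4 and 15.4) by 1.44 ± 0.19 (adjusted p = 6.1e-07). That call was lost after thinning (0.30, adjusted p = 0.79) and without the cells over 50000 UMIs (0.73, 0.053; 4e-14 to 0.79 over 13 alternatives). Adventitial stroma-like cells had 0 UMIs in both libraries.

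Apcdd1 (ENSMUSG00000071847, chromosome 18, 62922327 to 62953815), a membrane-bound Wnt inhibitor and target, was the rarest of the 10 genes, with 94 and 89 UMIs in all kept cells. Medullary stroma-like cells held 31.4 CPM (18.6 to 49.6) and 41.4 (27.3 to 60.3), from 18 and 27 UMIs in 13 and 16 cells. Cortical stroma-like cells had 0 and 3 UMIs. The direct ratio was 47.5 (15.2 to 239), and the fitted cortical minus medullary difference was -5.48 ± 0.75 (adjusted p = 3e-06), -4.74 without replicate 1 and -9.33 without replicate 2, where the cortical count is 0. Erythroid-like cells had 0 UMIs, and near-empty barcodes held 0.568 and 1.94 CPM.

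Apcdd1 in stroma-like cells (4.49 and 4.80) was 18.1-fold above the progenitors (4.18 ± 0.51, adjusted p = 1.2e-06), which had 4 and 6 UMIs. The ureteric epithelium-like cells had 1 UMI in all, against 78 in stroma-like cells. By direct counts the ratio was 63.1 (11.0 to 2523), and the fitted difference was 5.75 ± 0.82 (adjusted p = 6.1e-06), with 8.03 without replicate 1 and 5.03 without replicate 2. Early nephron-like and progenitor-like cells did not differ by the test (0.33 ± 0.71, adjusted p = 0.75). Endothelial-like cells held 1.32 and 1.42 CPM.

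Axin2, Lef1, Fzd10 and Apcdd1, each high in medullary stroma-like cells, were also counted together in single cells. After thinning, at least 2 of these 4 genes were found in 13 of 57 medullary stroma-like cells of replicate 1 (22.8%, exact binomial 95% interval 12.7 to 35.8) and 16 of 69 of replicate 2 (23.2%, 13.9 to 34.9). In cortical stroma-like cells this held for 0 of 165 (which allows up to 1.82%) and 1 of 196, in interstitial stroma-like cells for 2 of 74 (2.70%) and 4 of 54 (7.41%), and in renal vesicle-like cells for 5 of 98 and 3 of 134. In the mural gate, whose cells lay mostly in stroma clusters, it held for 10 of 238 (4.20%) and 12 of 125 cells (9.6%). In ureteric tip-like cells it held for 1 of 56 and 2 of 56, and in erythroid-like cells for 0 of 255 and 0 of 184 (up to 1.18% and 1.63%). These counts follow in part from the levels of the single genes, and whether the genes shared cells beyond that was not tested.

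**Figure D4:**
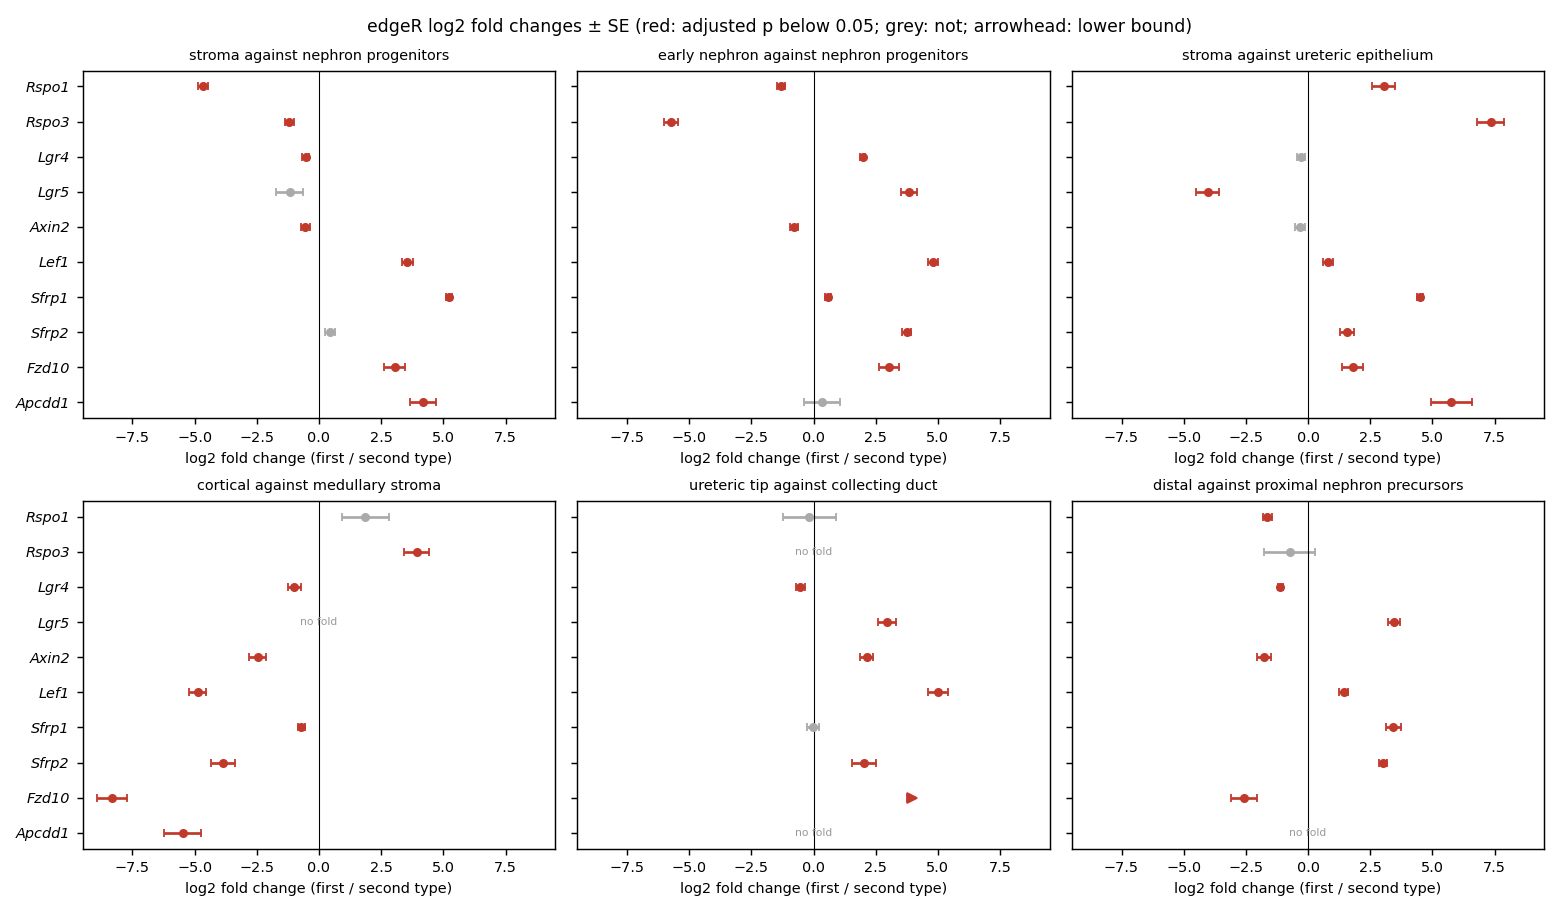
Fitted log2 differences of the 10 genes (points, with SE bars) in the 6 comparisons of gated types, from edgeR's quasi-likelihood test on sums of 2 libraries, with adjusted p below 0.05 in red. In the cortical against medullary panel 7 genes lie left of 0 and Rspo3 alone passes on the right, the arrowhead marks the lower bound for Fzd10 in the ureteric tip, and pairs with too few UMIs carry no point.

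All 10 genes passed the filter on low counts in both fits, and the 6 comparisons can be set against all genes tested. The comparisons share types and libraries, so they are not independent of one another. Between cortical and medullary stroma-like cells, 8 of the 10 genes passed the test, where 18.6% of all 12808 genes did. Rspo3 was higher in the cortex (9.32% of all genes were), and Lgr4, Axin2, Lef1, Sfrp1, Sfrp2, Fzd10 and Apcdd1 were higher in the medulla (9.24% were). The median log2 difference of the 9 genes with a fold was -2.47, against 0.01 for all genes. Lgr5 had 2 and 0 UMIs in these types, too few for a fold. The medullary gate held 62 and 74 cells.

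Between ureteric tip-like and collecting duct-like cells, 6 of the 10 genes passed, where 41.1% of all genes did. Lgr5, Axin2, Lef1, Sfrp2 and Fzd10 were higher in the tip (20.3% of all genes were), and Lgr4 was higher in the duct (20.8% were). After thinning, which lowered the share over all genes to 17.9%, 3 passed (Axin2, Lef1 and Fzd10). Rspo1 did not pass (-0.16 ± 1.07, adjusted p = 0.93), with 7 and 9 UMIs in all, and Rspo3 and Apcdd1 had at most 2 UMIs in either type. The gates held 56 and 56 tip-like cells and 74 and 60 duct-like cells, and the median depth of tip-like cells was 37892 UMIs in replicate 1 and 19605.5 in replicate 2.

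Between distal and proximal precursor-like cells, 8 of the 10 genes passed, where 24.8% of all genes did. Lgr5, Sfrp1, Sfrp2 and Lef1 were higher on the distal side (11.7% of all genes were), and Rspo1, Lgr4, Axin2 and Fzd10 on the proximal side (13.1% were). Apcdd1 had 1 and 0 UMIs. The median absolute log2 difference was 1.77 over the 9 genes with a fold and 0.29 over all genes.

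The broader comparisons had high background rates, so their counts say little about the 10 genes as a set. Between stroma-like and nephron progenitor-like cells 8 of 10 passed, where 55.1% of all 15302 genes did, with 4 higher in the stroma (27.2% of all genes were) and 4 lower (27.9% were). Between early nephron-like and progenitor-like cells 9 of 10 passed, where 46.2% of all genes did, with 6 higher in the early nephron (21.9% of all genes were) and 3 lower (24.3% were). Between stroma-like and ureteric epithelium-like cells 8 of 10 passed, where 58.4% of all genes did, with 7 higher in the stroma (27.4% of all genes were) and 1 lower (30.9% were). At a mitochondrial limit of 5%, 4 of the 9 genes tested passed in the last comparison (Rspo3, Lgr5, Sfrp1 and Axin2), where 39.3% of all genes did. The median absolute log2 differences of the 10 genes were 2.12, 2.50 and 2.42 in these comparisons, against 0.55, 0.39 and 0.64 for all genes.

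Of 53 further Wnt pathway genes, 49 were tested in the broad and 48 in the fine types. In the stroma, 4 were higher in cortical and 15 in medullary stroma-like cells, where 9.32% and 9.24% of all genes were. Of the 8 targets and feedback genes in the list, 6 were higher in the medulla and 0 in the cortex, and of the 9 secreted inhibitors tested, 5 were higher in the medulla and 2 in the cortex. Notum, which encodes a secreted enzyme that inactivates Wnts, had 0 UMIs in cortical and 10 in medullary stroma-like cells (8.72 and 7.67 CPM), at least 10.5-fold more there (adjusted p = 0.0043). Sostdc1, a secreted antagonist of BMP and Wnt signalling, held 1.63 and 1.48 CPM in cortical and 48.8 and 39.9 in medullary stroma-like cells (-4.79 ± 1.14, adjusted p = 0.0027). Tnfrsf19, a receptor gene regulated by Wnt signalling, held 1.08 and 0.492 CPM in cortical and 15.7 and 9.21 in medullary stroma-like cells (-3.90 ± 0.76, adjusted p = 0.00034).

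In the ureteric epithelium, 17 of the 48 further genes were higher in tip-like and 7 in collecting duct-like cells, where 20.3% and 20.8% of all genes were. Of the 8 targets and feedback genes, 6 were higher in the tip and 0 in the duct. The secreted inhibitor Wif1 had 112 UMIs in the tip and 0 in the duct, at least 43.4-fold more (adjusted p = 3.7e-08). The transcription factor Sp5, a direct Wnt target, had 50 and 0 UMIs (at least 19.4-fold, adjusted p = 1e-06), and the receptor Fzd9 had 27 and 0 (at least 10.5-fold, adjusted p = 0.00028).

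Between the nephron precursors, 9 further genes were higher on the distal and 10 on the proximal side, where 11.7% and 13.1% of all genes were. The targets and feedback genes were split, 2 distal and 4 proximal of 8. Notum had 0 UMIs in distal and 53 in proximal precursor-like cells, at least 19.1-fold more (adjusted p = 3.4e-05). Frzb, a secreted Frizzled-related protein, held 3.39 and 1.88 CPM in distal and 23.1 and 28.5 in proximal precursor-like cells (-3.24 ± 0.37, adjusted p = 4.3e-08). Nkd1, a feedback inhibitor acting on Dishevelled, held 8.37 and 8.32 CPM against 63.3 and 65.3 (-2.93 ± 0.17, adjusted p = 6.1e-14).

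Between early nephron-like and progenitor-like cells 17 further genes were higher and 15 lower in the early nephron, where 21.9% and 24.3% of all genes were. They were led in size by the inhibitor Dkk1 (6.54 ± 0.48, adjusted p = 1.7e-10), the ubiquitin ligase Rnf43 (4.92 ± 0.30, adjusted p = 1.8e-11) and Sostdc1 (4.59 ± 0.29, adjusted p = 1.7e-11). Stroma-like cells had 18 genes higher and 20 lower than the progenitors (27.2% and 27.9% of all genes). The largest were Dkk1, with 161 and 174 CPM against 0.664 and 0.942, Sfrp4, with 47 UMIs against 2, and the receptor Fzd1, with 144 and 142 CPM against 9.74 and 5.80. Against ureteric epithelium-like cells 14 were higher and 18 lower in the stroma (27.4% and 30.9% of all genes). Sfrp4 had 47 UMIs in stroma-like and 0 in ureteric epithelium-like cells (at least 12.7-fold, adjusted p = 0.00023). Rnf43 (27.9 and 29.6 CPM in the ureteric epithelium) and Wif1 (7.39 and 9.70) were lower in the stroma, which had 5 and 2 UMIs of them in all.

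Likeness of pattern was measured as Pearson's r of log2(CPM + 1), averaged over the libraries, across 19 gated types, as a description without a test. Among the 10 genes the closest pairs were Lef1 with Fzd10 (r = 0.76), Fzd10 with Apcdd1 (0.75) and Axin2 with Fzd10 (0.71). Rspo1 and Rspo3 had r = 0.19 and Rspo3 and Lgr5 r = -0.53. Among 12742 genes, those most like Rspo1 were Cdh2 (0.86), Amer2 (0.84) and Gxylt2 (0.82), and those most like Rspo3 were G630016G05Rik (0.90), 2700033N17Rik (0.89) and Meis2 (0.86). For Lgr4 they were 4430402I18Rik, Hoxb3os (both 0.87) and Slc1a1 (0.86), and for Lgr5 Prr36 (0.91), Syt5 and Sox9 (both 0.89). For Axin2 they were Gm26735 (0.86), Podxl2 and 2410018L13Rik (both 0.82), and for Lef1 Khdrbs3 (0.78), Fzd10 (0.76) and Kcnmb4 (0.75). For Sfrp1 they were Gm11627 (0.88), Pdgfra and Fxyd1 (both 0.87), where Pdgfra is a marker of the stroma gate. For Sfrp2 they were Gm26771 (0.95), Rgs6 (0.78) and Sema6c (0.75), and for Fzd10 Dach2 (0.84), Kcnma1 (0.82) and Lrfn5 (0.80). For Apcdd1 they were Gdf7, Nts and Cck (all 0.94), where Cck is a marker of the medullary gate.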

How the data were processed

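Single-cell RNA libraries were made from 3′ cDNA ends on the 10x Chromium platform, per the labels' protocols. The deposited values are raw UMI counts per gene and barcode in unfiltered matrices. Per the submitters' processing notes the tool was Cell Ranger 6.0.1 and the build mm10, whereas the file headers name Cell Ranger 4. Gene positions come from RefSeq's annotation of GRCm38, the assembly of mm10.

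Barcodes were filtered as stated above, and the highest Scrublet scores (expected rate 6%) were removed at 0.8% per 1000 cells, 310 and 212 barcodes. Mitochondrial removal took 690 and 768. A cell joined the type whose markers had the highest mean z score (clipped at 5) if that score was at least 0.2, led the next by 0.2 and had at least 2 markers with a UMI. This scoring rule was set after the files were seen, without the levels of the 10 genes. Cells were gated with 13 lists, then within stroma, early nephron and ureteric epithelium with 10. The mural gate had 36.6% of its cells in mural clusters. It stayed in the fit and is described only for Fzd10 and for genes counted together in single cells.

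UMIs were summed per library and type with at least 20 cells in each library. edgeR 4.0.16 (limma 3.58.1, R 4.3.3) fitted 24 sums of 12 broad types (15302 genes, 11 residual degrees of freedom) and 20 sums of 10 fine types (12808 genes, 9), using TMM normalization, filterByExpr, a library block, which pairs sums from the same library, and quasi-likelihood tests. Benjamini-Hochberg adjustment ran over every gene in a fit, with a threshold of 0.05. Cells were never replicates. Alternatives were DESeq2 1.42.0 (size factors, Wald test), other filters, gates and depths, Leiden clusters (scanpy 1.11.5), and leaving out each library. Intervals and floors (3 counts) cover counting error only.

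All 10 genes were named in every comparison. Further Wnt genes were named as the 3 with the largest absolute log2 difference past the threshold, and like genes as the 3 of highest r among genes with at least 10 CPM in a type. The genes, markers and lists were chosen with earlier results of these data known.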

Additional observations from a re-analysis of the deposited data

How the results depend on the processing

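With 2 libraries and no residual degrees of freedom once 1 is left out, leaving out a library gave values and no test. All 47 called differences kept their direction without either library, and for 12 of them the fold, and for 8 the log2 difference, moved by over 1.5 times (14 in all, as given above). Of 592 alternative values with a test for the 47 differences, 569 kept direction and call, 22 (of 13 differences) kept direction and lost the call, and 1 changed sign: Lef1 in stroma against ureteric epithelium, -0.79 at a mitochondrial limit of 5%. That limit kept 2825 and 1878 cells, too few medullary, tip and collecting duct cells for those comparisons.

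Differences that had not passed changed sign as follows. Without replicate 1, Rspo1 in cortical against medullary stroma was -0.039, Apcdd1 in early nephron against progenitors -0.0029 and Rspo1 in tip against collecting duct 0.10, and without replicate 2 Sfrp1 in the last comparison was 0.069. Lgr4 in stroma against ureteric epithelium was 0.17 after thinning, and Rspo3 in distal against proximal precursors was 0.30 at the 5% limit. Rspo1 in tip against collecting duct was 1.10 without cells over 50000 UMIs, 0.20 after thinning and 0.090 without doublet removal. Sfrp1 there was 0.60 without those cells, 1.08 after thinning, 0.0092 and 0.077 at minima of 1000 and 5000 UMIs, 0.21 at a 20% limit and 0.0040 without a filter on low counts. The counts of genes past the threshold ranged from 7 to 9 for cortical against medullary stroma, where 11.6% to 22.2% of all genes passed. Counts were 6 to 8 for distal against proximal precursors (7.92% to 25.6%) and 8 to 9 for early nephron against progenitors (28.7% to 48.3%). For stroma against progenitors they were 6 to 10 (39.9% to 58.3%). For stroma against ureteric epithelium the count fell to 4 at the 5% limit (39.3% of all genes passed there), and for tip against collecting duct to 3 after thinning (17.9%). All 10 genes kept their highest type at minima of 1000 and 5000 UMIs and without doublet removal, and 6 did at the 5% limit. For the other 4 (Axin2, Fzd10, Apcdd1 and Sfrp1) the highest type, medullary or interstitial stroma, had under 20 cells in a library at that limit. It then gave no level. Lef1 moved from renal vesicle to medullary stroma at a 20% limit, without cells over 50000 UMIs, with a stricter gate and with Leiden clusters. With the stricter gate Sfrp1 moved to medullary stroma, as interstitial stroma had under 20 cells in a library there. For these highest types alone, leaving out a library was an alternative chosen after seeing the data, and gave 9 to 10.

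Fits without the library block called 7 of 10 genes for stroma against progenitors (50.0% of all genes), where Axin2 (-0.55) lost its call. The other 5 comparisons kept their numbers. These were 9 for early nephron against progenitors (38.1%), 8 for stroma against ureteric epithelium (55.0%) and 8 for cortical against medullary stroma (17.7%). Tip against collecting duct had 6 (37.8%) and distal against proximal precursors 8 (20.6%). Calls over all genes moved by over 1.5 times at the 5% limit (7063 to 3869 for early nephron against progenitors, 8934 to 5289 for stroma against ureteric epithelium, 3179 to 1472 for the precursors), after thinning (7063 to 4069, 8934 to 4989, 2378 to 1238 for cortical against medullary, 5268 to 1556 for tip against duct, 3179 to 688), with a stricter gate (2378 to 1460) and without cells over 50000 UMIs (5268 to 2870, 3179 to 1656). The genes tested fell from 15302 and 12808 in the broad and fine types to 13466 and 10588 at the 5% limit and 12533 and 8691 after thinning, and the fine types had 12638 with a stricter gate and 11727 without those cells. Thinning and the 5% limit leave fewer UMIs or cells; the cause of the other changes was not tested.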
